A study of Mus musculus with 9 samples.

Results

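Hspa5, Hsp90b1, Dnajc3, Dnajb9, Manf and Pdia6 encode chaperones and folding factors of the lumen of the endoplasmic reticulum (ER). They were chosen by symbol as the genes of this class in the deposited table, which holds 98 genes, so they are 6 of 98. The table itself was chosen on a readout: the authors kept genes that passed an adjusted p of 0.1 when they compared these same libraries, and all 98 did. The difference between the groups is therefore described below without a test, and the genes outside the table were not analysed here.

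The libraries came from maxillary bone of male C57BL mice that were 8 weeks old, with 1 library per sample. In all mice an upper molar was extracted, and tissue was taken 2 weeks later. In the 4 Spon. Healing libraries, labelled NT, the socket healed without a graft. In the 5 Allograft libraries, labelled SALINE, the socket is taken to have been filled with bone particles mixed with saline. The study also had an allograft group given further saline injections, and the label does not tell these groups apart. The assignment follows the study's sequenced comparison of Allograft with Spon. Healing. The particles came from femurs and tibias of C57BL/6 mice and were chemically cleaned, lyophilized and irradiated with ultraviolet light, and the study's methods describe them as free of protein and live cells. The groups thus differ in both the graft and the saline, which cannot be told apart. The methods also state that the 3 replicates richest in RNA went into the libraries, which does not match the 4 and 5 libraries used here, and which samples were chosen this way is not given. RNA was extracted from pulverized maxillae, so the counts come from all the cells of that tissue together. No marker of osteoblasts, osteoclasts, plasma cells, neutrophils, macrophages or fibroblasts was among the listed genes (0 of 28), so the cell makeup of the tissue could not be checked here. The plasma cell marker Igkc could not have been listed, because the study's methods left immunoglobulin genes out of the counting annotation.

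Secreted and membrane proteins fold in the ER. Hspa5 encodes BiP, the HSP70 of the ER lumen, which binds unfolded chains and releases them as it hydrolyses and exchanges nucleotides. J-domain proteins such as those encoded by Dnajc3 (p58IPK) and Dnajb9 (ERdj4) deliver clients to BiP and stimulate its ATPase. Hsp90b1 encodes GRP94, the HSP90 of the same compartment, Pdia6 a protein disulfide isomerase, and Manf a small soluble protein that binds BiP and is secreted when ER calcium falls. When unfolded proteins accumulate, the unfolded protein response raises transcription of such genes through the factors ATF6 and XBP1, which act on a promoter sequence called the ER stress element (ERSE). Cells that secrete much protein, such as the osteoblasts that lay down collagen, are known to depend on this machinery.

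The 6 genes lie on 5 chromosomes, with positions on GRCm38 that were the same in the deposited table and in GENCODE M21. Hspa5 (ENSMUSG00000026864) is at chr2:34771970-34777547 on the plus strand, with 9 exons in its principal transcript. Hsp90b1 (ENSMUSG00000020048) is at chr10:86690209-86705509 on the minus strand, with 18 exons. Dnajc3 (ENSMUSG00000022136) is at chr14:118937976-118981697 on the plus strand, with 12 exons. Dnajb9 (ENSMUSG00000014905) is at chr12:44205559-44210326 on the minus strand, with 3 exons. Pdia6 (ENSMUSG00000020571) is at chr12:17266545-17284770 on the plus strand, with 13 exons. Manf (ENSMUSG00000032575) is at chr9:106838312-106891979 on the minus strand, with 4 exons in the principal transcript. Reads were counted by strand, so genes on the opposite strand do not enter these counts. On the same strand, the annotated span of Manf takes in Rbm15b, and that of Hsp90b1 takes in the noncoding Gm15344 and the miRNA gene Gm25745, a type that the study's methods left out of the counting annotation. How reads in stretches shared with Rbm15b or Gm15344 were assigned is not given in the sources used here.

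The promoters of these genes are shown because the ERSE is the element through which the class is known to respond together. RefSeq windows of 300 bases, from 250 before to 50 after the annotated start on GRCm38.p6, were found for 5 of the 6 genes (all but Manf). Both strands were searched for the exact ERSE, that is CCAAT, then 9 bases of any kind, then CCACG. It was present in 4 of the 5 windows, those of Hspa5, Hsp90b1, Dnajc3 and Pdia6. Over all genes it was present in 39 of 32851 windows (0.119%), these 4 included. Since the element is known for this class, its presence here is background and not a result of these data. The matches are given here 5′ to 3′ on the strand that carries them, with the fixed bases in capitals.

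Hspa5, chr2:34772025-34772043, plus strand: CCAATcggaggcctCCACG
Dnajc3, chr14:118937827-118937845, plus strand: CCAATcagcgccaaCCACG
Pdia6, chr12:17266491-17266509, plus strand: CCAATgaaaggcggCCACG
Hsp90b1, chr10:86705638-86705656, minus strand: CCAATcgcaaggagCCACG
Hsp90b1, chr10:86705533-86705551, plus strand: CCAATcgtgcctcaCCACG

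The elements of Hspa5, Dnajc3 and Pdia6 run in the direction of the gene and begin at positions -65, -105 and -98 from the RefSeq start. That start differs from the outer end of the gene span given above, lying 120 bases inside the span for Hspa5, 65 for Hsp90b1, 44 for Pdia6 and 258 for Dnajb9, and 44 bases before it for Dnajc3. The Hspa5 element therefore lies within the annotated Hspa5 span. Hsp90b1 held 2 exact elements in opposite directions, with leftmost bases at -212 and -107, and between them, at -172, a stretch with 1 mismatch in the second part. Stretches with at most 1 mismatch there, exact ones included, were found in 0.998% of all windows. Dnajb9 held CCAAT and CCACG in its window but not at this spacing. That window lies wholly within the annotated Dnajb9 span, so no bases before the outer end of the span were searched for this gene. CCAAT alone was present in 37.4% and CCACG alone in 32.8% of all windows, so the parts taken singly are common. The second form of the element (ATTGG and CCACG with 1 base between them) was found in 0.0365% of all windows, TGACGTGG in 0.676% and TGATGCAA in 0.895%, and none of these in the 5 windows. A match is a sequence description, and binding of a factor was not measured. Of the 52 genes of the ER list described below that were not in the table, 46 had a window, and 6 of those held an exact ERSE: Creld2, Ero1b, Canx, Calr, Syvn1 and Derl3. Among the other 92 listed genes only 61 had a window, and none of these 61 held an exact ERSE. Beside a share of 0.137% over all genes with a window, 61 genes are too few to show a lower share.

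**Figure D1:**
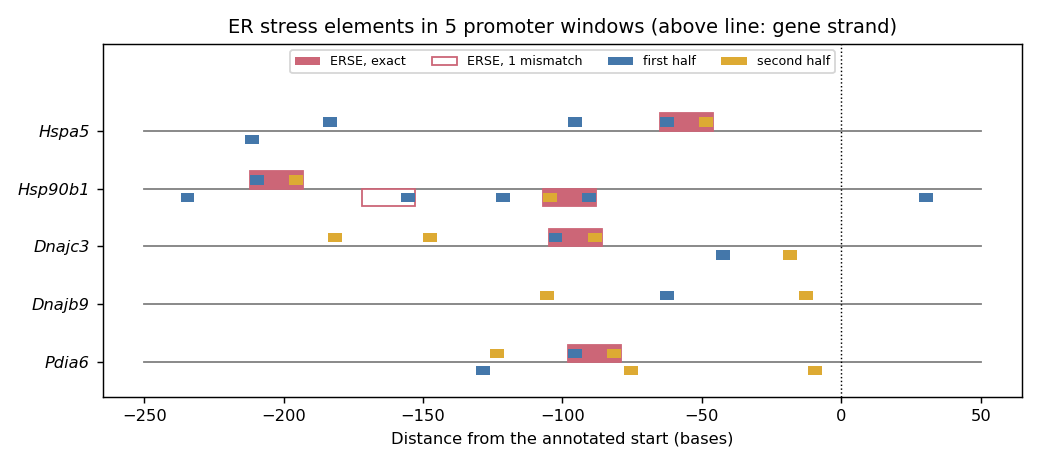
Position of exact ERSEs (filled boxes), the stretch with 1 mismatch (open box) and single parts of the element (small blocks) in the promoter windows of 5 genes, in bases from the annotated start, with matches on the gene's strand above the line and on the other strand below it. Hspa5, Dnajc3 and Pdia6 hold 1 exact element each, with first bases at positions -65, -105 and -98. Hsp90b1 holds 2, and Dnajb9 holds none in its window, which lies within the annotated Dnajb9 span.

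The whole windows of Hspa5 and Pdia6, the genes with the largest and smallest difference between the groups of the 6, are given 5′ to 3′ on the plus strand with the fixed bases of the ERSE in capitals.

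Hspa5, chr2:34771840-34772139: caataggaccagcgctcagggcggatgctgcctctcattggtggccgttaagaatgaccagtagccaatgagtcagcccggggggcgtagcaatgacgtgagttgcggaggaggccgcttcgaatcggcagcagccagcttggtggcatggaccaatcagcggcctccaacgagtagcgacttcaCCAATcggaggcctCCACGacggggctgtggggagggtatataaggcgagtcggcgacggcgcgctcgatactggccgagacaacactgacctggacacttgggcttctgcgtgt
Pdia6, chr12:17266339-17266638: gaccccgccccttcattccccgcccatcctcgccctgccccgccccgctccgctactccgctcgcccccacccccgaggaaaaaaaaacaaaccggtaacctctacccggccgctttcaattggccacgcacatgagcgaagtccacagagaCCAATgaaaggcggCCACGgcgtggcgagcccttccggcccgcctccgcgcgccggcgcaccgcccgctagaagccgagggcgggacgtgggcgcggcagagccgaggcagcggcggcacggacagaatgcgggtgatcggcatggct

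Both windows thus carry an exact element, in sequence of 61.3% G and C in Hspa5 and 70.0% in Pdia6.

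Levels below are normalized counts, in which the authors scaled the raw counts of a library by its size factor, and per-library values are given in replicate order. Size factors were 0.577 to 1.44 (Spon. Healing) and 0.653 to 2.20 (Allograft). Together the 6 genes had 3853 to 11054 raw counts in Spon. Healing and 7466 to 20042 in Allograft. Total library depths are not known here, since only the 98 genes were at hand. Among the libraries, Spon. Healing replicate 3 stood apart in the sum of the 4 listed mitochondrially encoded mRNAs, with 39255 normalized counts against 79243 to 123415 in the other Spon. Healing libraries and 122520 to 156876 in Allograft. The part of this sum in the results was not tested. Without that library, the mean log2 difference of the 6 genes was 0.62, and with it 0.62, but single genes moved in both directions. Dnajb9 went from 0.71 to 0.59 and Hsp90b1 from 0.45 to 0.39. Hspa5, Dnajc3, Manf and Pdia6 went up, to 0.93, 0.73, 0.65 and 0.40. In bulk RNA, more cells of a type and more mRNA per cell cannot be told apart.

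For each of the 6 genes the lowest Allograft value exceeded the highest Spon. Healing value. The same was true of 53.1% of the 98 listed genes, which were chosen for such a difference, so nothing is read from that count. The mean log2 difference of the 6 genes, Allograft minus Spon. Healing, was 0.62 (standard error 0.11), and their median was 0.64, beside a median of 0.57 over the listed genes that were higher in Allograft. With raw counts left unscaled the groups overlapped in all 6 genes, and with factors computed over the listed genes only Hspa5 was without overlap. The proportions given further below do not depend on the scaling.

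Hspa5 had 1419, 2334, 1994 and 1946 normalized counts in the 4 Spon. Healing libraries, and the 5 Allograft libraries had 3702, 4285, 3309, 3075 and 3493. The lowest Allograft library lay 1.32-fold above the highest Spon. Healing library, the widest gap among the 6 genes, and Spon. Healing replicate 1 was the lowest of all. The means were 1923 ± 378 (SD, n = 4) and 3573 ± 460 (SD, n = 5), a log2 difference of 0.91 (standard error 0.17) or 1.87-fold. By that difference Hspa5 ranked 9 among the 64 listed genes that were higher in Allograft and had counts in every library.

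Dnajc3, whose product hands unfolded chains to BiP, had 413, 606, 633 and 584 normalized counts in the 4 Spon. Healing libraries, and the 5 Allograft libraries had 862, 1136, 831, 637 and 997. Allograft replicate 4 lay only 1.01-fold above Spon. Healing replicate 3, so the groups nearly met, and Spon. Healing replicate 1 was again the lowest library. The log2 difference was 0.67 (standard error 0.20), from 559 ± 99.1 (SD, n = 4) to 893 ± 187 (SD, n = 5).

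Dnajb9, the other BiP cochaperone and the one with the lowest counts, had 143, 173, 109 and 147 normalized counts in the 4 Spon. Healing libraries, and the 5 Allograft libraries had 272, 308, 190, 196 and 211. Allograft replicates 1 and 2 stood above the other 3 Allograft libraries. The log2 difference was 0.71 (standard error 0.20), with 143 ± 26.5 (SD, n = 4) and 235 ± 52.1 (SD, n = 5). Its raw counts were 71 to 249 in Spon. Healing, where counting error alone gives a coefficient of variation of 9.79% against the 18.5% observed. Counting error was larger for this gene than for the other 5.

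Hsp90b1, the HSP90 of the ER, had 811, 881, 752 and 945 normalized counts in the 4 Spon. Healing libraries, and the 5 Allograft libraries had 1178, 1243, 1156, 1090 and 1091. These Allograft values were the tightest of any of the 6 genes, with a coefficient of variation of 5.60%. The log2 difference was 0.45 (standard error 0.08), between 847 ± 83.7 (SD, n = 4) and 1152 ± 64.5 (SD, n = 5).

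Pdia6, which forms and rearranges disulfide bonds in client proteins, had 2111, 2352, 2460 and 1990 normalized counts in the 4 Spon. Healing libraries, and the 5 Allograft libraries had 2923, 3092, 2710, 2512 and 2956. Its log2 difference of 0.35 (standard error 0.09) was the smallest of the 6 and ranked 60 among the same 64 genes. The means were 2228 ± 216 (SD, n = 4) and 2839 ± 228 (SD, n = 5), and Allograft replicate 4 lay 1.02-fold above the highest Spon. Healing library.

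Manf, the BiP-binding secreted factor, had 1343, 1332, 1381 and 1066 normalized counts in the 4 Spon. Healing libraries, and the 5 Allograft libraries had 2488, 2375, 1479, 1590 and 2037. Within Spon. Healing, replicates 1 to 3 lay within a narrow range and replicate 4 below it, whereas the Allograft libraries spread widely. The log2 difference was 0.62 (standard error 0.17), from 1281 ± 145 (SD, n = 4) to 1994 ± 453 (SD, n = 5). In Allograft the SD of log2 Manf was 10.8 times what counting error gives, the highest such ratio of the 6 genes.

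**Figure D2:**
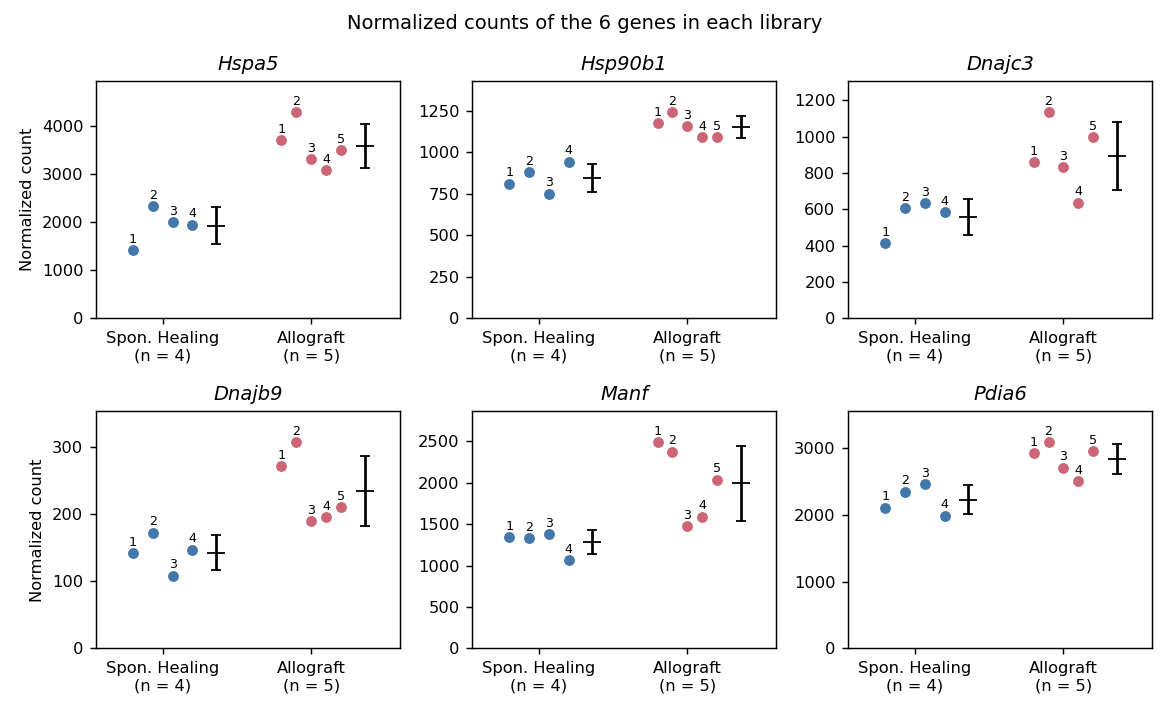
Normalized count (linear axis from 0) of each of the 6 genes in 4 Spon. Healing and 5 Allograft libraries, 1 point per library labelled with its replicate number, with the group mean and SD as a bar. All Allograft points lie above all Spon. Healing points in each panel, by the widest margin in Hspa5 (1.32-fold) and the narrowest in Dnajc3 (1.01-fold).

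**Figure D3:**
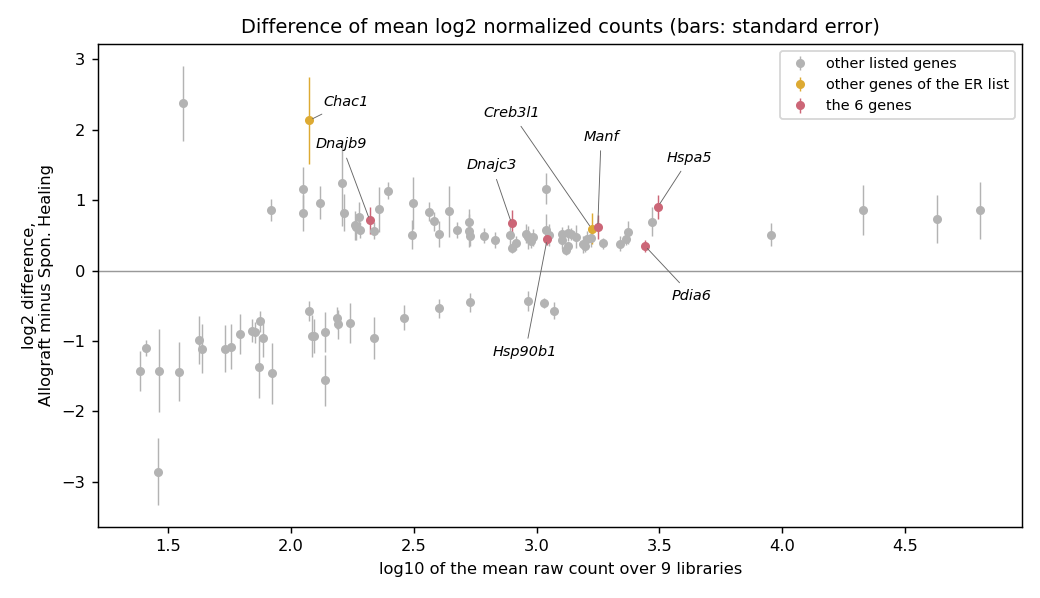
Difference of mean log2 normalized counts, Allograft minus Spon. Healing, with its standard error, against log10 of the mean raw count, for the 95 listed genes with counts in every library. The 6 genes lie between 0.35 (Pdia6) and 0.91 (Hspa5), and Chac1, a low-count gene of the ER list, lies at 2.13.

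The proportions of the 6 mRNAs were compared next. CEL-Seq2 reads the 3′ end of each mRNA, so counts were not divided by transcript length, and how well each 3′ end is captured is not known. The order of counts was Pdia6, Hspa5, Manf, Hsp90b1, Dnajc3 and Dnajb9 in each of the 4 Spon. Healing libraries, with Pdia6 1.01-fold to 1.49-fold above Hspa5. In Spon. Healing replicates 2 and 4 that gap was within counting error. In each of the 5 Allograft libraries Hspa5 came before Pdia6, by 1.18-fold to 1.39-fold, and the other 4 kept their order. Shares of the summed counts serve to compare a gene between libraries, not 1 gene with another. Hspa5 made up 22.7%, 30.4%, 27.2% and 29.1% of the 6-gene sum in the Spon. Healing libraries, and 32.4%, 34.4%, 34.2%, 33.8% and 32.4% in the Allograft libraries. The BiP share was thus higher in each Allograft library and varied less there, with a mean of 27.4% ± 3.36 (SD, n = 4) without the graft and 33.4% ± 0.989 (SD, n = 5) with it. The highest Spon. Healing share had a 95% Wilson interval of 29.6% to 31.3%, and the lowest Allograft share, in replicate 5, one of 31.6% to 33.2%, counting error only.

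The share of Pdia6 was lower in Allograft although its level was higher. Pdia6 made up 33.8%, 30.6%, 33.6% and 29.8% of the sum in the Spon. Healing libraries, and 25.6%, 24.9%, 28.0%, 27.6% and 27.4% in the Allograft libraries. The means were 32.0% ± 2.05 (SD, n = 4) and 26.7% ± 1.39 (SD, n = 5), again without overlap. In Spon. Healing replicate 4, the lowest of its group, the Wilson interval was 28.4% to 31.3%, and in Allograft replicate 3, the highest of its group, 27.2% to 28.8%, so these 2 intervals meet.

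The ratio of Hspa5 to Pdia6 counts was 0.672, 0.993, 0.811 and 0.978 in the 4 Spon. Healing libraries, under 1 in every one. In replicates 2 and 4 the counts were 3361 against 3386 and 1123 against 1148. These lie closer than counting error, so those ratios cannot be told from 1. The Allograft values were 1.27, 1.39, 1.22, 1.22 and 1.18, above 1 in every library. The log2 ratio differed by 0.56 between the groups, against a within-group SD of 0.19. Of the 15 ratios between members, 2 did not overlap between the groups, Hspa5 to Pdia6 and Hspa5 to Hsp90b1. The same held for 83 of 1891 ratios (4.39%) between all listed genes higher in Allograft with at least 100 mean counts. Both member ratios set Hspa5, with the largest log2 difference of the 6 (0.91), against the genes with the smallest, Pdia6 (0.35) and Hsp90b1 (0.45). They are therefore not separate from the differences given above. The Hspa5 to Hsp90b1 ratio was 2.28 ± 0.449 (SD, n = 4) without the graft and 3.09 ± 0.258 (SD, n = 5) with it. These ratios are built from the same libraries that chose the genes, so no test was made.

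The other shares overlapped between the groups. Manf had 18.4% ± 2.38 (SD, n = 4) and 18.5% ± 2.38 (SD, n = 5), Dnajc3 had 7.97% ± 0.976 and 8.30% ± 0.992, and Dnajb9 had 2.06% ± 0.385 and 2.19% ± 0.238, each difference well under the SD. Hsp90b1 had 12.2% ± 1.70 in Spon. Healing and 10.9% ± 1.00 in Allograft, a difference of -1.35 percentage points, between the SDs of the groups. It ran from -2.0 without Spon. Healing replicate 3 to -0.70 without Spon. Healing replicate 4. The values of the groups overlapped for all 4 genes.

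**Figure D4:**
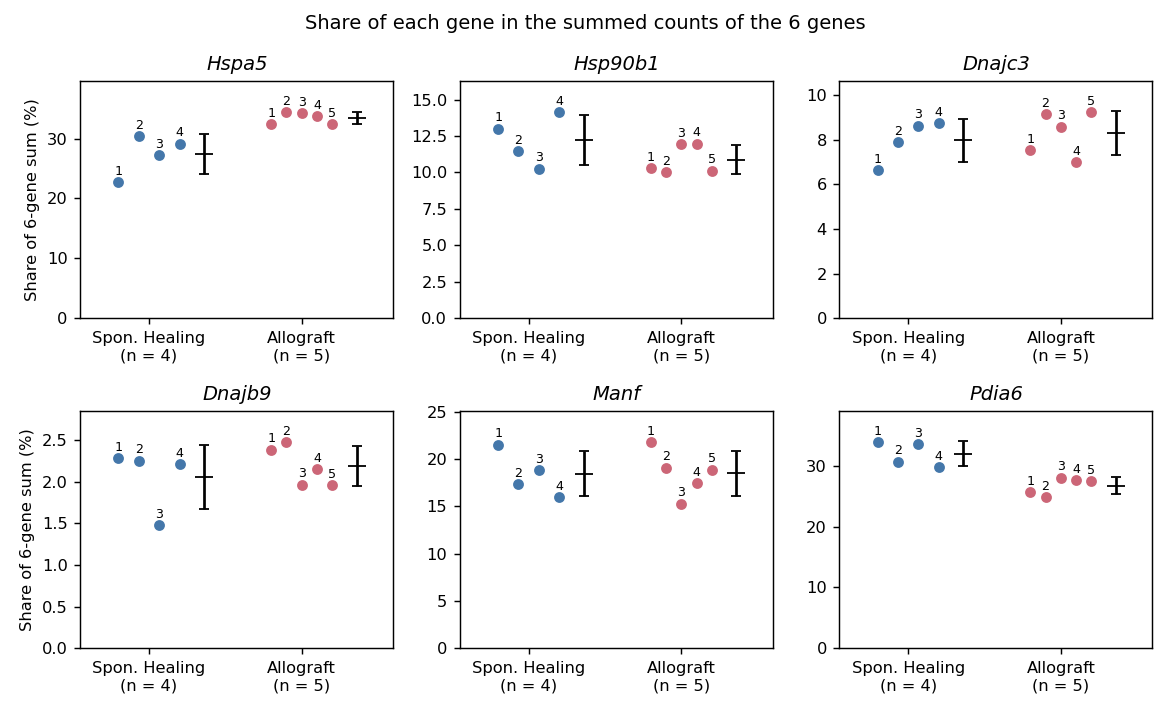
Share (%) of each gene in the summed raw counts of the 6 genes, 1 point per library with its replicate number, with the group mean and SD as a bar (n = 4 and 5). The Hspa5 share lies at 22.7% to 30.4% in Spon. Healing and 32.4% to 34.4% in Allograft, the Pdia6 share at 29.8% to 33.8% and 24.9% to 28.0%, and the other 4 shares overlap.

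Within each group the genes partly varied together between libraries. In Allograft replicate 2 all 6 genes lay above their Allograft mean, with a median log2 deviation of 0.28. In Allograft replicate 4 all 6 lay below it, with a median of -0.22. Replicate 2 held the highest Allograft value of 5 genes (all but Manf), and replicate 4 the lowest of 4 genes. Of the Allograft libraries, replicate 4 had the largest size factor (2.20) and replicate 2 one of 0.877. Of the other 56 listed genes that were higher in Allograft and had at least 100 mean counts, 42 lay above their mean in replicate 2 and 12 in replicate 4. Their median deviations were 0.13 and -0.14, in the same direction as those of the 6 genes. The part of depth or scaling in these shared deviations was not tested.

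Spon. Healing libraries showed less of a common direction. In replicate 2 all 6 genes lay above their group mean, by 0.06 (Hsp90b1) to 0.30 (Hspa5) on the log2 scale, and this library had the largest size factor of its group (1.44). Of the other 56 listed genes higher in Allograft with at least 100 mean counts, 46 also lay above their mean there. Their median deviation was 0.13, beside 0.11 for the 6 genes, so nothing particular to the 6 is read from this library. In replicate 1, Hspa5 and Dnajc3 were both lower than their group mean by 0.42 log2 units, whereas Manf was 0.08 above it. In replicate 3, Dnajb9 lay 0.38 below and Dnajc3 0.20 above. Each of the 3 libraries other than replicate 2 had members on both sides of their means.

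**Figure D5:**
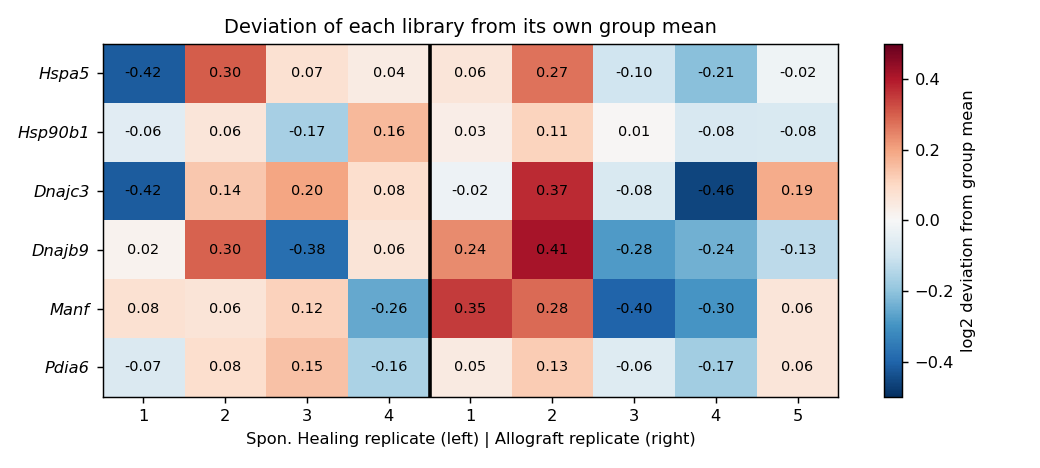
Deviation of each gene's log2 normalized count from the mean of its own group, in 4 Spon. Healing (left) and 5 Allograft (right) libraries, printed in each cell and coloured from blue (below) to red (above). Allograft replicate 2 is above 0 and Allograft replicate 4 below 0 for all 6 genes, and Hspa5 and Dnajc3 share the lowest Spon. Healing value, -0.42, in replicate 1.

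Over both groups together, Hspa5 (BiP) and its cochaperone Dnajc3 had the smallest SD of the log2 ratio within groups. It was 0.16, whereas 0.24 for Hspa5 and 0.30 for Dnajc3 alone would combine to 0.38 if they varied independently. Both genes were low together in Spon. Healing replicate 1. In Allograft alone, other ratios were steadier relative to their means. The Hspa5 to Dnajc3 ratio there was 4.08 ± 0.510 (SD, n = 5). Hspa5 to Pdia6 was 1.26 ± 0.0786 and Hsp90b1 to Pdia6 0.407 ± 0.0254. The largest SD was 0.34, for the 2 J-domain cochaperones Dnajc3 and Dnajb9, of which counting error gives 0.13. Their ratio was 5.83 in Spon. Healing replicate 3, where Dnajb9 had 71 counts, and 2.90 to 3.96 in the other Spon. Healing libraries. The rank of this pair without that library is not given here. The ratio SD was under the independent value in 13 of 15 pairs (86.7%), beside 65.7% of 1891 pairs of listed genes that were higher in Allograft and had at least 100 mean counts. The median over the 15 pairs was 0.26, beside 0.32 over the same 1891 pairs. It was 0.21 without Spon. Healing replicate 1 and 0.22 without Spon. Healing replicate 3. Pairs share libraries and genes, so these are descriptions.

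Of 60 genes on a list of ER folding and the unfolded protein response, 8 were in the table, and all 8 were higher in Allograft, beside 66.3% of all 98 listed genes. Of the 8, 6 are the genes described above. The 8 were 5 of 14 HSP70, HSP90 and cochaperone genes (Hspa5, Hsp90b1, Dnajb9, Dnajc3 and Manf), 1 of 10 genes of disulfide formation (Pdia6), and 2 of 14 sensors and regulators (Creb3l1 and Chac1). None of 8 lectin chaperones, prolyl isomerases and collagen chaperones, and none of 14 genes of ER-associated degradation, was listed. Unlisted genes were not analysed here, so nothing is said of their levels. Creb3l1, a membrane-bound transcription factor of the ER that drives collagen genes in bone, had 1235 ± 288 normalized counts (SD, n = 4) and 1839 ± 292 (SD, n = 5), a log2 difference of 0.59 (standard error 0.22). Chac1, a glutathione-degrading enzyme induced by ATF4, had 33.3 ± 16.9 (SD, n = 4) and 183 ± 181 (SD, n = 5), a log2 difference of 2.13 (standard error 0.62), with up to 498 in 1 Allograft library.

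The listed genes that followed the mean of the 6 most closely over the 9 libraries were Rhoq, Arf4, Nus1, Ssr3 and Golph3, out of 71 compared. The measure was the SD of the difference in log2 normalized count, which was 0.09 for Rhoq, a small GTPase, and 0.09 for Arf4, a GTPase of the early secretory pathway. It was 0.11 for Nus1, a subunit of the enzyme that makes dolichol precursors for glycosylation, for Ssr3, a subunit of the translocon-associated protein complex, and for Golph3, a Golgi membrane protein. Their own log2 differences between the groups ran from 0.47 (Golph3) to 0.70 (Nus1), near the 0.62 of the 6 genes, and a group difference of similar size lowers this measure by itself.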

How the data were processed

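Maxillary RNA (2 ng per library) was sequenced as CEL-Seq2 libraries. The authors trimmed reads with cutadapt (with a minimum read length), aligned them to GRCm38 with Ensembl release 99 annotation by TopHat, allowing 2 mismatches, and counted them with htseq-count, using strand and requiring a mapping quality of 10 or more. Tool versions, and whether molecular identifiers were collapsed, are not given in the sources used here. The deposited values used are whole-number raw counts and a normalized signal, which the authors made by dividing the counts by 1 DESeq2 size factor per library (1 constant ratio per library within a relative 0.0001). The deposited p-values, fold changes and mean of the authors' own comparison were not used, except to check that all 98 adjusted p-values were under 0.1.

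The members and gene lists were chosen with earlier results of these data known. Named genes were the 6 members, list genes in the table, the 5 closest followers (mean raw count of at least 100) and the ratios with the smallest and largest within-group SD. Log2 differences are differences of group means of log2 normalized counts, with no pseudocount and standard errors from the variances of both groups. Members chosen on this contrast were given no test, and the calculation was tested on simulated data. Columns were matched to samples by description, and replicate numbers follow the sample titles, which differ from the numbers in the column labels. Whether replicates came from separate animals is taken from the study's methods, and intervals cover counting error only. Python 3.11.15, scipy 1.17.1 and, for TMM factors, R 4.3.3 with edgeR 4.0.16 were used. Alternatives were raw counts, TMM and median-ratio factors, a pseudocount of 1, ratios of group means, pooled counts, a minimum of 10 counts, title numbers as a block and each library left out. The planned protein features were not computed because no protein sequences were used here.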

Additional observations from a re-analysis of the deposited data

Results flagged for a closer look

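Of 24 groups of values examined (levels and shares of the 6 genes, in 4 or 5 libraries each), 2 held a library far from the others of its group, where chance flags about 1 in 20. Manf had 1066 normalized counts in Spon. Healing replicate 4, with a gap of 0.844 of the group's range to the nearest library. The share of Dnajb9 in the sum of the 6 genes was 1.48% in Spon. Healing replicate 3, with a gap of 0.901 of the range. That value rests on 71 raw counts, with a 95% Wilson interval of 1.18% to 1.86%.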

How the results depend on the processing

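The log2 difference in level of each gene depended on the scaling. For Hspa5, Hsp90b1, Dnajc3, Dnajb9, Manf, Pdia6 and their mean, in that order, the log2 differences were 1.37, 0.91, 1.13, 1.17, 1.08, 0.81 and 1.08 on raw counts, 0.59, 0.13, 0.35, 0.40, 0.30, 0.034 and 0.30 with TMM factors and 0.58, 0.12, 0.34, 0.39, 0.29, 0.026 and 0.29 with median-ratio factors. These scalings moved the median of all listed genes by 0.46, -0.32 and -0.32, and factors computed over genes chosen for a difference absorb part of it. The genes without overlap numbered 0, 1 and 1 of the 6, and 4, 6 and 5 of the 98 listed genes in place of 52 (this count was added after seeing the data). Order among the genes and the shares do not change with scaling.

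With 1 library left out, the mean log2 difference of the 6 genes ran from 0.55 to 0.68, and the Hspa5 share difference ran from 4.53 to 7.08 percentage points and that of Pdia6 from -5.99 to -4.64. The log2 Hspa5 to Pdia6 ratio difference ran from 0.44 to 0.63 (added after seeing the data). The median ratio SD ran from 0.21 to 0.28. The share difference of Manf changed sign in 6 of 10 alternatives, those of Dnajc3 and Dnajb9 in 1 each, and those of Hspa5, Hsp90b1 and Pdia6 in 0. Title numbers are shared by the groups, but deviations of same-numbered libraries correlated across 77 genes at 0.06, 0.09, -0.22 and 0.12, so the numbers were not taken to pair the samples. The column labels carry other numbers than the titles. Deviations of the libraries labelled NT2 and Saline2 correlated at -0.50, and those of NT4 and Saline4 at -0.35. The correlation of NT6 with Saline6 was not computed. With title numbers as the replicate block, the mean log2 difference was 0.61 and that of Hspa5 was 0.91. Dnajb9 is limited by depth, with as few as 71 counts.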
